A study of Rattus norvegicus with 16 samples.

Results

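The enzymes that turn arachidonic acid into prostaglandins and leukotrienes were followed through the reduction of *Pax8* in PCCl3 cells, a differentiated thyroid follicular cell line of the rat. Their genes are *Ptges*, *Ptgs1*, *Ptgs2*, *Ptgds*, *Ptgis*, *Pla2g4a*, *Alox5ap*, *Lta4h* and *Hpgd*, and with them stands *Ptger4*, which encodes a prostaglandin receptor. These 10 genes, of 8899 with a probe that could be named, were selected on their place in the pathway and on the array values described here, since *Ptges* entered because it passed the significance threshold in opposite directions against the 2 controls. The members' own ratios are therefore a description and carry no test.

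Expression was measured on 16 two-colour arrays. Cells transfected with an siRNA against *Pax8* (siPax8, 10 ng/ml, with a lipid reagent) were set against wild type cells (wt) on 8 arrays and, on another 8, against cells given a scrambled siRNA at the same dose (siScramble). There were 4 biological replicates per comparison, hybridized once in each dye orientation. All cells grew in medium with serum and a mixture of hormones that includes TSH and hydrocortisone, a glucocorticoid. The labels call the control of the first comparison wild type, whereas the study's texts differ on whether those cells received the lipid reagent, so transfection and the loss of *Pax8* cannot be told apart against wt cells. The siPax8 samples of both comparisons bear the same names in the study's design, so the comparisons are not independent of each other.

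Arachidonic acid is released from membrane phospholipids by phospholipase A2 enzymes, of which the cytosolic enzyme encoded by *Pla2g4a* is the most selective for it. The cyclooxygenases, the constitutive *Ptgs1* and the inducible *Ptgs2*, convert it into prostaglandin H2, from which terminal synthases make the individual prostanoids. *Ptges* (microsomal prostaglandin E synthase) makes prostaglandin E2, *Ptgds* and *Hpgds* make prostaglandin D2, and *Ptgis* makes prostacyclin. In the leukotriene branch, *Alox5ap* presents arachidonic acid to 5-lipoxygenase and *Lta4h* makes leukotriene B4. *Hpgd* starts the inactivation of prostaglandins, and *Ptger4* is a receptor of prostaglandin E2 that raises cyclic AMP, the second messenger through which TSH also acts on thyroid cells.

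The promoters of the 3 members that fell furthest against wt cells are shown because they are the sequences nearest to the measured transcripts. Each is the run of 250 bases before the annotated start of the gene in RefSeq (assembly GRCr8), written 5′ to 3′ on the strand of the gene. Capitals mark a GC box (GGGCGG on either strand) in *Ptges* and a TATA box (TATAAA on either strand) in *Pla2g4a*, and neither motif, nor CCAAT, lies in the window of *Ptgs1*.
Ptges (chr3:34586988-34587237, minus strand): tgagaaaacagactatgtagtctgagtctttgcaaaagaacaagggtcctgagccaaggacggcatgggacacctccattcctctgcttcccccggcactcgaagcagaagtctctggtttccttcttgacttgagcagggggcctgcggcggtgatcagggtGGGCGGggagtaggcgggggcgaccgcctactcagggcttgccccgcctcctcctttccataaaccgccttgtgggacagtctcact
Ptgs1 (chr3:39981169-39981418, plus strand): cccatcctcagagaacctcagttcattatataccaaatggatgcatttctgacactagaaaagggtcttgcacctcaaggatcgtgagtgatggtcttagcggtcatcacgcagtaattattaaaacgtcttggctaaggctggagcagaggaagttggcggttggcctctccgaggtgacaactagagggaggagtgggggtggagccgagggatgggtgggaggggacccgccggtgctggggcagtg
Pla2g4a (chr13:64572353-64572602, minus strand): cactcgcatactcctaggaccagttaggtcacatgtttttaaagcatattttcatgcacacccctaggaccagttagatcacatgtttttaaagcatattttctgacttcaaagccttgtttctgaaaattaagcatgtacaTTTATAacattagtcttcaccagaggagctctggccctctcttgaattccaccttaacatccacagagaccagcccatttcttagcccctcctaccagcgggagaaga
The promoter of *Ptges* holds 1 GC box, 87 bases upstream of the start, and has a G and C content of 58.8%, against 54.4% for *Ptgs1* and 42.4% for *Pla2g4a*. The TATAAA match of *Pla2g4a* lies 108 bases upstream of the start, on the strand opposite to the gene. Of the 10 members 8 had a promoter in the table, all but *Ptgis* and *Alox5ap*. A GC box was found in 5 of these 8, and in 30.5% of 33465 rat promoters cut to the same length. TATAAA was found in 1 of the 8 and in 12.9% of all, CCAAT in 2 and in 34%, and CACGTG, an E-box, in 1 and in 5.59%. No member held TGAGTCA, an AP-1 site present in 4.05% of all promoters, or TGACGTCA, a cyclic AMP response element present in 1.59%. All motifs were searched on both strands, and a match is a description of the letters only.

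*Pax8* itself was at 67.6% of its wt level in the siPax8 cells, a log2 ratio of -0.56 ± 0.24 (SD, n = 4; limma, adjusted p = 0.000472), and at 84.2% of its siScramble level, -0.25 ± 0.25 (n = 4; limma, adjusted p = 0.143). It was lower in 4 of 4 replicates of each comparison, but against siScramble cells unevenly, at -0.58, -0.29, -0.12 and -0.007 in replicates 1 to 4. Only the fall against wt cells passed the threshold used throughout, an adjusted p below 0.005 over 41012 probes. Of 11 thyroid markers with a probe, *Pax8* itself included, all were well above background on every array. Against wt cells 9 were past the threshold as lower and 1 as higher, beside 9.46% and 7.26% of all named genes. Against siScramble cells 1 was past it, *Tg*, as lower, beside 1.31% of all named genes. Macrophage and fibroblast markers had a summed intensity of 922 to 1061 over 7 genes and of 520 to 536 over 6 genes in all conditions. Of the 7 macrophage markers 3 (*Cd68*, *Cd14* and *Lyz2*) were well above background on every array, and only *Itgam* never was. Of the 6 fibroblast markers 1 was well above background on every array and 5 never were. Of these 13 genes 1 was past the threshold, *Cd68*, higher against wt cells.

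Against wt cells, 3 of the 10 members were past the threshold as lower, *Ptges*, *Ptgs1* and *Pla2g4a*, and none as higher (limma, 0 also at an unadjusted p below 0.05). Of all named genes, 9.46% were lower and 7.26% higher by the same rule, which asks that each probe of a gene pass with one sign. Against siScramble cells 1 member, *Ptges*, was past it as higher and none as lower (limma, 0 also at an unadjusted p below 0.05), against 1.67% of named genes higher and 1.31% lower. Nothing is read from the members' counts, since the same comparisons chose them. All ratios below are siPax8 over control on the log2 scale, each replicate being the mean of its 2 dye orientations.

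**Figure D1:**
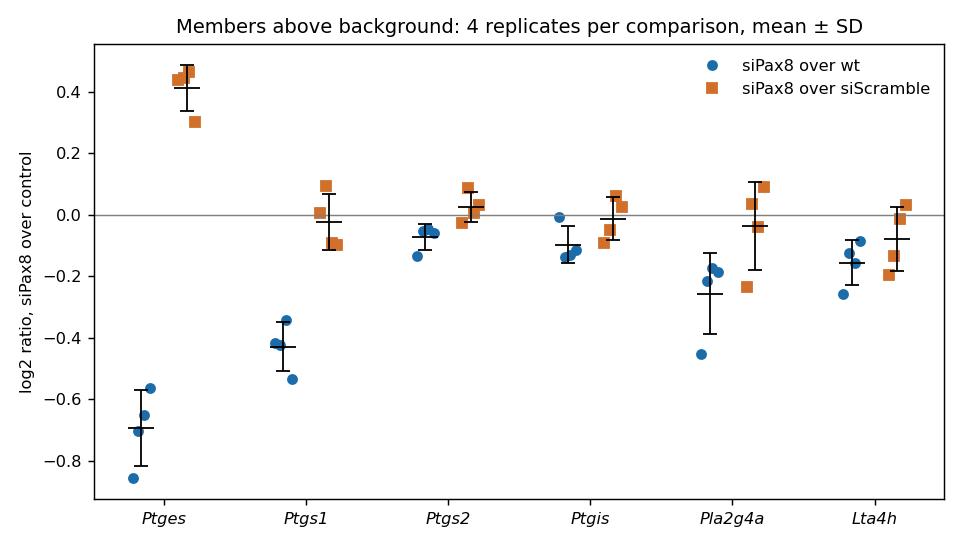
Log2 ratio of siPax8 over control (vertical axis) for the 6 members with a probe well above background, with blue circles for the 4 replicates against wt cells and orange squares for the 4 against siScramble cells. Black bars are mean ± SD. The *Ptges* values run from -0.86 to -0.56 with wt cells as control and from 0.30 to 0.47 with siScramble cells, and for *Ptgs2* the probe above background is drawn.

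*Ptges*, the gene of the terminal enzyme of prostaglandin E2 synthesis, had 1 probe (A_43_P12079, NM_021583), well above background on all arrays. Against wt cells its log2 ratios were -0.86, -0.70, -0.65 and -0.56 in replicates 1 to 4, a mean of -0.69 ± 0.12 (SD, n = 4), or 61.8% of the wt level. Against siScramble cells they were 0.44, 0.45, 0.47 and 0.30, a mean of 0.41 ± 0.08 (n = 4), or 1.33-fold. All replicates of the first comparison were below 0 and all of the second above it, with no overlap.

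The level of *Ptges* differed between the 2 controls. Its normalized log2 intensities in wt cells were 11.57, 11.51, 11.38 and 11.46 (mean 11.48 ± 0.08), and in siPax8 cells on the same arrays 10.71, 10.81, 10.73 and 10.89 (mean 10.79 ± 0.08). On the other arrays siPax8 cells gave 10.74, 10.66, 10.80 and 10.81 (mean 10.75 ± 0.07) and siScramble cells 10.30, 10.22, 10.33 and 10.50 (mean 10.34 ± 0.12). The order was therefore wt, siPax8, siScramble, with no overlap between neighbours, and the 2 sets of siPax8 values overlapped. Setting the 2 comparisons against each other, the *Ptges* level of siScramble cells was 46.4% of that of wt cells, an indirect log2 difference of -1.11, and by replicate number it was -1.30, -1.15, -1.12 and -0.87. No array held siScramble and wt cells together. In these whole-culture RNAs, fewer expressing cells and less RNA per cell cannot be told apart.

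**Figure D2:**
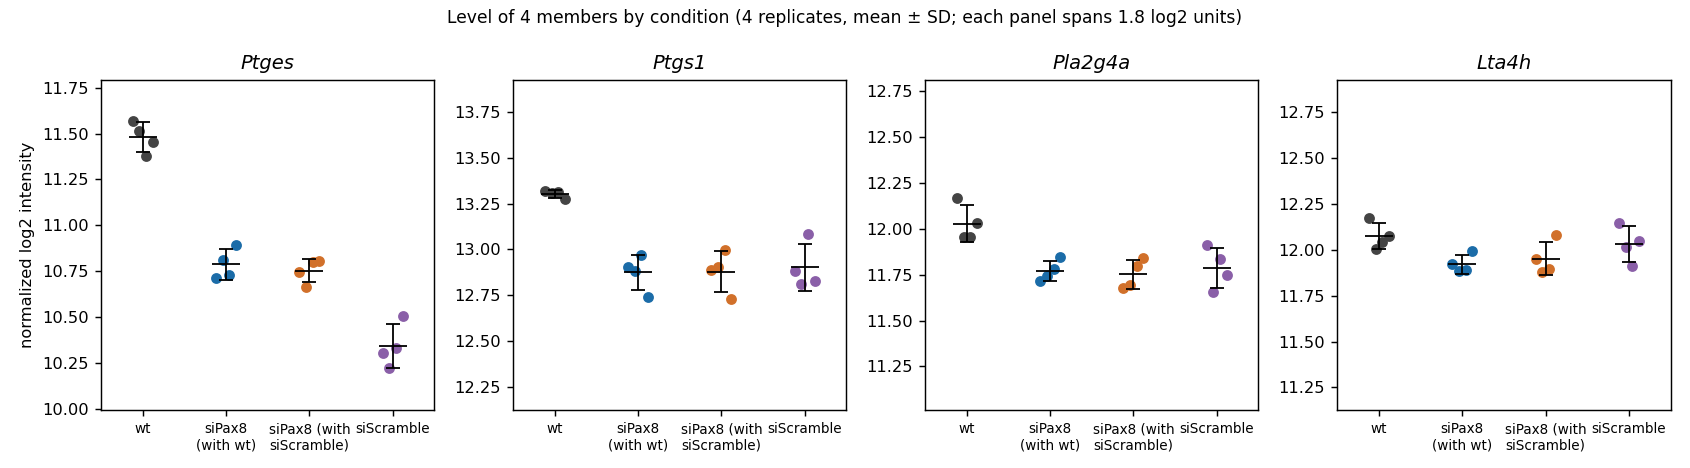
Normalized log2 intensity (vertical axis) of *Ptges*, *Ptgs1*, *Pla2g4a* and *Lta4h* in wt cells, in siPax8 cells hybridized with wt or with siScramble cells, and in siScramble cells. Points are 4 replicates and bars mean ± SD, and every panel spans the same log2 range. *Ptges* takes 3 separate levels with siPax8 cells in the middle (10.79 and 10.75), whereas for *Ptgs1* and *Pla2g4a* only the wt level (13.30 and 12.03) stands apart from the others.

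The *Ptges* ratio kept its sign in both dye orientations. With siPax8 in Cy5 it was -0.58 against wt cells and 0.49 against siScramble cells, and with siPax8 in Cy3 -0.80 and 0.33. Within the 4 slides, each with arrays of both comparisons, it ranged from -0.80 to -0.62 and from 0.36 to 0.52. For members, counts of settings describe the processing only and are no support, since the same values chose these genes. Every count of settings, here and below, includes the main fit at an adjusted p below 0.05, which keeps each call at 0.005 by construction. It also includes loess alone and Aquantile normalization, which gave the same ratios, so the settings are not all separate alternatives. The *Ptges* ratio against wt cells was past the threshold in 17 of 17 alternative settings. The one against siScramble cells was past it in 12 of 17, being lost with the signals processed by the Agilent software (0.43), with siPax8 in Cy5 alone (0.49), and without replicate 1, 2 or 3. Of 8899 named genes, 4 were past the threshold as lower than wt and higher than siScramble cells (*Crym*, *Gstm2*, *Pex5l* and *Ptges*). Another 3 were past it the reverse way (*Atf3*, *Ccl5* and *Fos*). *Ptges* is among them by its selection, and the other genes were named after their values were seen.

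*Ptgs1*, the constitutive cyclooxygenase, was read by 1 probe printed in 10 spots (A_44_P137448). Its ratios against wt cells were -0.42, -0.42, -0.34 and -0.53, a mean of -0.43 ± 0.08 (SD, n = 4), or 74.3% of the wt level. Against siScramble cells they were 0.00, 0.09, -0.09 and -0.10, a mean of -0.02 ± 0.09 (n = 4), falling on both sides of 0. The *Ptgs1* level was 13.30 ± 0.02 in wt cells and 12.87 ± 0.10, 12.88 ± 0.11 and 12.90 ± 0.13 in siPax8 cells of the 2 comparisons and in siScramble cells. Those 3 sets overlapped, and the wt values lay above them all, so siPax8 and siScramble cells differed from wt cells by a similar amount (an indirect difference between siScramble and wt cells of -0.41).

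Dye mattered for *Ptgs1*. Against wt cells the ratios were -0.65, -0.68, -0.60 and -0.80 with siPax8 in Cy5 and -0.18, -0.17, -0.09 and -0.26 with siPax8 in Cy3, 2 sets that did not overlap. Against siScramble cells the means were -0.29 and 0.25, opposite in sign, and the latter was past the threshold on its own. The 10 spots of an array spread by only 0.0121 to 0.0783 (SD), less than the gap between orientations. The average over the dye swap, in which a dye effect of equal size cancels, was past the threshold against wt cells in 15 of 17 settings, and was lost with siPax8 in Cy3 alone (-0.17) and with the signals processed by the Agilent software (-0.43).

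**Figure D3:**
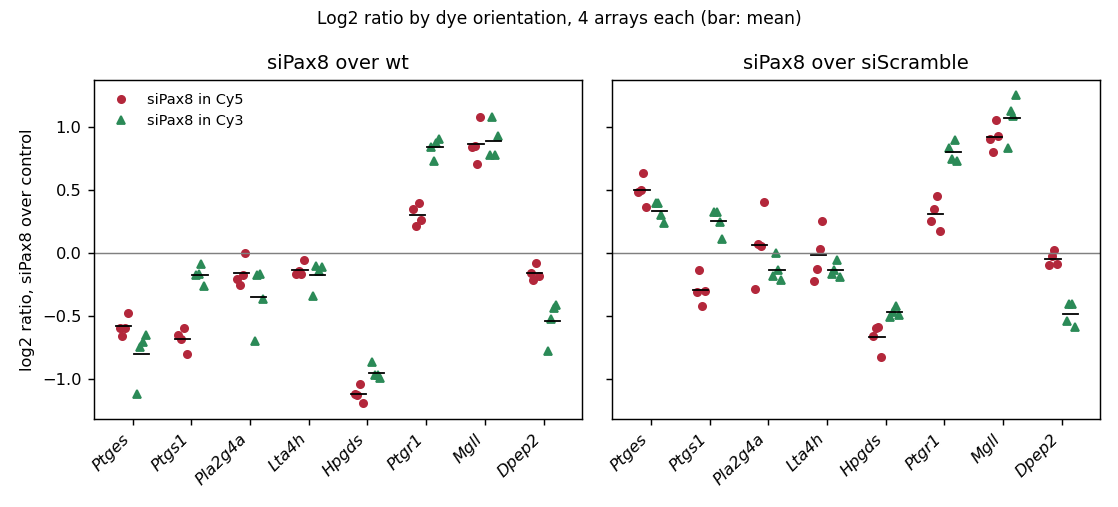
Log2 ratio of siPax8 over control (vertical axis) on single arrays of 4 members and 4 other pathway genes, against wt cells on the left and siScramble cells on the right. Red circles are arrays with siPax8 in Cy5, green triangles those with siPax8 in Cy3, and bars the mean of 4 arrays. *Ptges* keeps its sign in both orientations, whereas *Ptgs1* against siScramble cells goes from -0.29 to 0.25.

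*Pla2g4a*, the cytosolic phospholipase A2 that frees arachidonic acid, lay just inside the threshold against wt cells. Its ratios were -0.45, -0.21, -0.17 and -0.19 (mean -0.26 ± 0.13, SD, n = 4), 83.7% of the wt level, and replicate 1 stood apart. Against siScramble cells they were -0.24, 0.03, -0.04 and 0.09 (mean -0.04 ± 0.14, n = 4). The call against wt cells held in 8 of 17 settings and was lost, for example, without replicate 2, 3 or 4, while the sign was negative in all 17. *Lta4h*, the leukotriene A4 hydrolase, lay just outside. Its ratios against wt cells were -0.26, -0.12, -0.16 and -0.09 (mean -0.16 ± 0.07, n = 4), past the threshold in 4 of 17 alternative settings, and against siScramble cells -0.20, -0.13, -0.01 and 0.03 (mean -0.08 ± 0.10, n = 4).

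The inducible cyclooxygenase *Ptgs2* had 2 probes. One (A_44_P472989, 10 spots) was well above background on all arrays and gave -0.13, -0.05, -0.05 and -0.06 with wt cells as control, and -0.03, 0.09, 0.01 and 0.03 with siScramble cells. The other (A_44_P278593) was not well above background on any array. The prostacyclin synthase *Ptgis* gave -0.01, -0.14, -0.13 and -0.11 against wt cells (mean -0.10 ± 0.06, n = 4) and -0.09, -0.05, 0.06 and 0.03 against siScramble cells (mean -0.01 ± 0.07, n = 4), and was well above background on 7 of 8 arrays of the latter. With the signals processed by the Agilent software its ratio against wt cells was -0.45, still not past the threshold. Neither gene was past it in any of 17 settings. Both lay close to background on the normalized log2 scale. Mean levels by condition were 6.72 to 6.74 for *Ptgs2*, over both probes, and 6.74 to 6.84 for *Ptgis*. Their ratios therefore do not show a lack of change.

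The other 4 members had no measurable ratio. *Ptgds*, *Alox5ap* and *Hpgd* were not well above background on any array, and *Ptger4* was so on 1 of 8 arrays against wt cells and on 2 of 8 against siScramble cells, in either channel. Their replicate levels in all conditions fell between 6.32 and 6.70 on the normalized log2 scale. No fold is given for them, and a change below this background could not be seen.

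Beyond the members, 65 further genes of eicosanoid metabolism and response were listed, of which 45 had a probe. Of these 22 had a probe well above background in every channel of all arrays, and 19 had none on any array. Those never above it included *Alox5*, *Alox15* and *Ltc4s*, the lipoxygenases and leukotriene C4 synthase, *Tbxas1*, the thromboxane synthase, the prostaglandin receptors *Ptger2*, *Ptger3*, *Ptgdr* and *Ptgfr* and the leukotriene receptors *Ltb4r* and *Cysltr1*. Against wt cells 5 of the 45 fell (11.1%) and 3 rose (6.67%), near the 9.46% and 7.26% of all named genes. Against siScramble cells 2 fell and 2 rose (4.44% each), beside 1.31% and 1.67% of all named genes. The median log2 ratio of the 45 was 0.00275 and -0.0034, against -0.00522 and -0.00339 over all named genes.

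**Figure D4:**
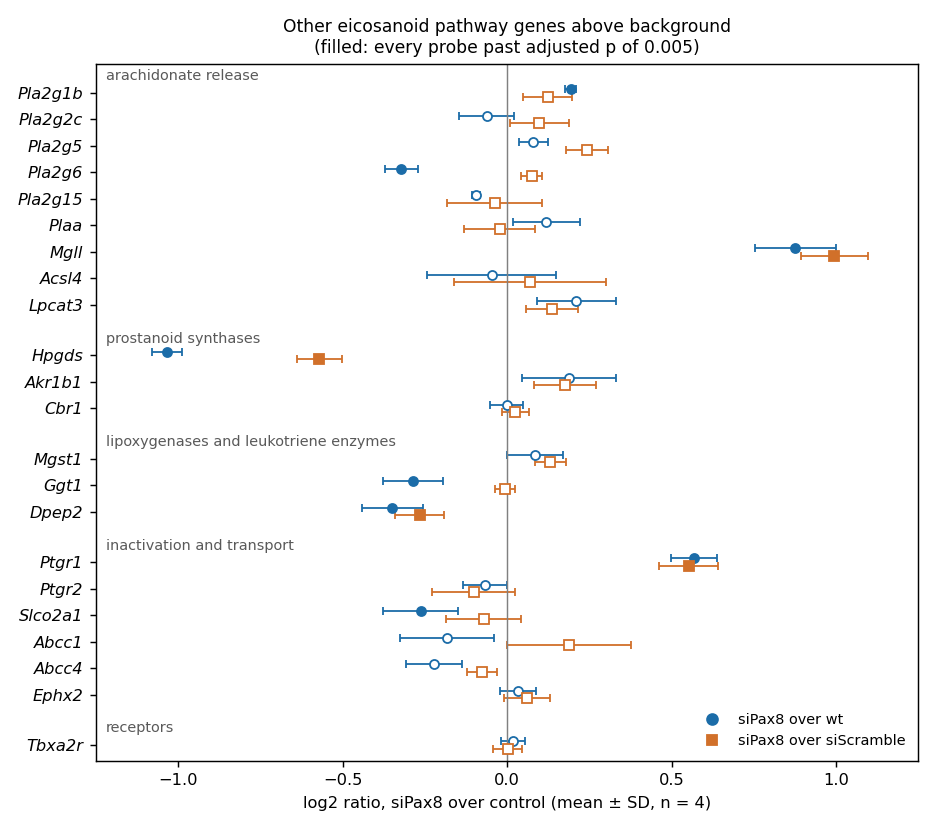
Log2 ratio of siPax8 over control (horizontal axis, mean ± SD, n = 4) of the 22 other pathway genes well above background on all arrays, grouped by role, with blue circles against wt cells and orange squares against siScramble cells. Filled symbols are past an adjusted p of 0.005 with every probe. *Hpgds* is the lowest (-1.03 and -0.57) and *Mgll* the highest (0.88 and 0.99) in both comparisons.

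*Hpgds*, the haematopoietic prostaglandin D synthase, fell in both comparisons. Against wt cells its ratios were between -1.09 and -0.99, a mean of -1.03 ± 0.05 (SD, n = 4; limma, adjusted p = 1.27e-07), or 48.8% of the wt level. Against siScramble cells they were -0.58, -0.53, -0.50 and -0.66, a mean of -0.57 ± 0.07 (n = 4; limma, adjusted p = 0.000238), or 67.3%. Its level was 8.27 ± 0.05 in wt cells, 7.23 ± 0.04 and 7.21 ± 0.09 in siPax8 cells and 7.78 ± 0.04 in siScramble cells, so siPax8 cells lay below both controls. With the signals processed by the Agilent software the ratios were -1.80 and -1.12, the latter not past the threshold. The size of the fall, and so the percentages given, depended on the processing.

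*Mgll*, the monoacylglycerol lipase that releases arachidonic acid from 2-arachidonoylglycerol, rose in both. Its ratios were 0.74 to 1.00 with wt cells as control (mean 0.88 ± 0.12, n = 4; limma, adjusted p = 2.11e-06) and 0.87 to 1.09 with siScramble cells (mean 0.99 ± 0.10, n = 4; limma, adjusted p = 9.37e-05), 1.84-fold and 1.99-fold. With the signals processed by the Agilent software the second, 1.17, did not pass. *Ptgr1*, a prostaglandin reductase that inactivates prostaglandins and leukotriene B4, was 1.48-fold the wt level (0.57 ± 0.07, n = 4; limma, adjusted p = 5.12e-06) and 1.47-fold the siScramble level (0.55 ± 0.09, n = 4; limma, adjusted p = 0.000436). It was higher in 4 of 4 replicates of each, by 0.30 and 0.31 with siPax8 in Cy5 and by 0.83 and 0.80 with siPax8 in Cy3, and the call against siScramble cells was lost in Cy5 alone, with the Agilent signals (0.54) and without replicate 2 (0.55).

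The remaining calls were smaller. *Dpep2*, a dipeptidase that converts leukotriene D4 to E4, was at 78.5% of wt (-0.35 ± 0.09, n = 4; limma, adjusted p = 0.000169) and 83.2% of siScramble cells (-0.27 ± 0.07, n = 4; limma, adjusted p = 0.00494). The second call held in 5 of 17 settings, and with siPax8 in Cy5 alone the ratio was -0.05. Against wt cells alone, *Pla2g6*, a calcium-independent phospholipase A2, fell to 80.0% (limma, adjusted p = 7.86e-05), *Ggt1*, a gamma-glutamyltransferase that acts on leukotriene C4, to 82.0% (0.000518) and *Slco2a1*, the prostaglandin transporter, to 83.4% (0.00171). *Pla2g1b*, a secreted phospholipase A2, rose to 114% (limma, adjusted p = 0.000835). The calls of *Ggt1* and *Slco2a1* were lost without replicate 3, that of *Slco2a1* also without replicate 4, and that of *Pla2g1b* without replicate 2, 3 or 4.

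The difference between the ratios against wt and against siScramble cells was tested for the 45 genes. It was past the threshold as below 0 for 3, *Hpgds*, *Pla2g6* and *Ggt1* (6.67%, against 2.79% of named genes). As above 0 it was past the threshold for none (limma, 0 also at an unadjusted p below 0.05, against 1.78% of named genes past the threshold). It was -0.46 for *Hpgds* (limma, adjusted p = 1e-04), -0.40 for *Pla2g6* (0.000113), whose ratio against siScramble cells was 0.07 ± 0.03 (n = 4), and -0.28 for *Ggt1* (0.00375). *Ggt1* kept its call in 7 of 14 settings and lost it without any one replicate. The fit took the comparisons as independent, although the siPax8 samples share their names. For *Mgll* the difference was -0.12 (limma, adjusted p = 0.366) and for *Ptgr1* 0.02 (0.919).

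Across the 8 replicate ratios of both comparisons, the named genes whose pattern was most like that of *Ptges* were *Htra1*, a secreted serine protease (Pearson r = 0.995), *Cd74*, the invariant chain of class II histocompatibility molecules (0.992), *Acadvl*, a mitochondrial acyl-CoA dehydrogenase (0.992), *Akap12*, a scaffold of protein kinase A (0.99), and *Aldh1a1*, a retinaldehyde dehydrogenase (0.987). The 8 values form 2 groups of 4 and share their siPax8 samples, and the gap between those groups enters r. None of the 5 was past the threshold in opposite directions. *Cd74* was at -1.01 against wt and -0.31 against siScramble cells, *Aldh1a1* at -1.20 and -0.23, *Htra1* at -0.51 and -0.02, and *Acadvl* at -0.13 and 0.18. *Akap12* was in at least 1 condition not well above background on any array, so no value is given.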

How the data were processed

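RNA of PCCl3 cells was hybridized on 16 two-colour Agilent arrays (4 biological replicates per comparison, each in both dye orientations). The authors deposited scanner files with fluorescence intensities, not normalized (mean spot intensity, median local background), which per the file headers came from Feature Extraction 10.1.1.1, and a value table of normalized log2 ratios. That table's columns had medians of -0.000736 to 0.00828 and correlated from -0.999 to -0.992 with the ratios computed here, with slopes near -1, so it holds control over siPax8.

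Normalization used limma 3.58.1 under R 4.3.3, by normexp (offset 50), loess within arrays and quantile normalization between channels. Control spots and outlier spots (112 to 215 of 45018 per array) were left out. Spots of a probe, then dye orientations of a replicate, were averaged and fitted with lmFit and eBayes, with Benjamini-Hochberg adjustment over 41012 probes. Genes were named through RefSeq accessions (10768 probes, 8899 genes), and 30244 probes stayed unnamed. A gene's value is the mean of its probes. A probe counted as above background on an array where at least as many of its spots were above it as were not. Between 52% and 60.8% of spots were above background, and the number of arrays limits the precision.

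By rule the 10 members, the listed pathway genes past the threshold, the 5 genes most like *Ptges* and *Pax8* were named with values. Other genes, given as examples of markers, of genes below background or of opposite calls, and *Abcc1*, were named after their values were seen. The members and all gene lists were chosen with earlier results of these data known. Same-numbered dye orientations were taken as the same biological replicate, from the numbers in the titles and the study's design. Their deviations correlated from 0.119 to 0.58. For replicate 2 against wt cells the same number gave 0.119 and another number 0.203, so that pairing was not borne out. Between the comparisons same-numbered replicates correlated from 0.0449 to 0.566, and replicate 3 correlated more with another number (0.408). The main fits therefore did not pair the comparisons by number. The replicate block for their difference and the *Ptges* differences given by replicate number did. The fits were tested on simulated data. The alternatives were another background correction, offset, normalization and threshold, the authors' value table, a filter on dim probes, single dye orientations, dye, slide and replicate terms, a joint fit, and leaving out each replicate.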

Additional observations from a re-analysis of the deposited data

Results flagged for a closer look

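The ratios of *Ptges* had opposite signs in the 2 comparisons in all replicates, a difference of -1.11 on the log2 scale. This difference was not tested, since it chose the gene. Among the other pathway genes the 2 comparisons differed by test for *Hpgds* (-0.46), *Pla2g6* (-0.40) and *Ggt1* (-0.28), and the ratios of *Pla2g6* lay below 0 against wt cells and above 0 against siScramble cells in 4 of 4 replicates each. *Abcc1* was named for its call with the replicate block. It also lay below 0 against wt cells and above 0 against siScramble cells in 4 of 4 replicates each. Neither ratio was past the threshold (limma, adjusted p = 0.0233 and 0.155). Against siScramble cells replicates 1 and 2 were at 0.03 and 0.02. The mean there was 0.38 with siPax8 in Cy5 and -0.007 with siPax8 in Cy3, so its sign depended on the dye. The difference of -0.37 did not pass the test without the block (limma, adjusted p = 0.0282).

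Replicate 4 of *Ptges* against siScramble cells (0.30) and replicate 1 of *Pla2g4a* against wt cells (-0.45) stood apart from the other 3 replicates by Dixon's criterion. Of 30 sets of 4 replicates examined, 2 did so, and chance alone marks about 1 in 20.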

How the results depend on the processing

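With the signals processed by the Agilent software, 1 member stayed lower than wt cells (*Ptges*) and 0 members were higher than siScramble cells (limma, 1 at an unadjusted p below 0.05). Of the other pathway genes, 1 was then lower than wt cells, 0 were higher and 0 lower than siScramble cells (limma, 8 and 3 at an unadjusted p below 0.05), and 1 differed between the comparisons (*Hpgds*). The count of pathway genes lower than siScramble cells was 1, *Hpgds*, with loess alone, Aquantile, the authors' value table, the filter on dim probes, siPax8 in Cy5 alone and the slide as a block. With siPax8 in Cy5 alone, 5 pathway genes were higher than wt cells and 1 than siScramble cells, and 0 members were higher than siScramble cells (limma, 1 at an unadjusted p below 0.05). With siPax8 in Cy3 alone, 1 member was lower than wt cells and 2 were higher than siScramble cells. A dye term and a slide block each gave 5 pathway genes higher than wt cells and 4 higher than siScramble cells, and an adjusted p below 0.05 gave 5 and 5. The fits with a dye term or a slide block entered both dye orientations of a replicate as separate samples, without pairing them. Their counts therefore overstate the number of independent samples and are not comparable with those of the main fit.

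With the replicate number as a block over single arrays, which pairs the dye orientations, 1 pathway gene was lower than siScramble cells, and no other of these counts moved past 1.5 times its value. For the difference between comparisons, a block on the replicate number pairs same-numbered replicates, which the correlations did not bear out for replicate 3. That fit called 4 genes as below 0. These were *Hpgds* (limma, adjusted p = 6.57e-05), *Pla2g6* (0.00019), *Ggt1* (0.00231) and *Abcc1*, a transporter that exports leukotriene C4 (a difference of -0.37, adjusted p = 0.000649, against 0.0282 without the block).

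Leaving out 1 replicate gave 0 to 1 members higher than siScramble cells, and among pathway genes 3 to 5 lower than wt cells, 1 to 2 higher than siScramble cells and 1 lower. The named genes' ratios and differences that were past the threshold kept their sign under all alternatives. *Ptgs1* against siScramble cells, not past it at -0.02, was at 0.25 and past it with siPax8 in Cy3 alone. Probes near background limit what was seen. They include those of the 4 members without a measurable ratio, and *Ptgs2* and *Ptgis* lay close to them. Causes of these changes were not tested.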
